A study of Mus musculus with 6 samples.

Results

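Liver mRNA transcripts of NAD and nicotinamide metabolism were compared between DUhTP (marathon) mice and DUC control mice. The set was a list of 10 genes of the tryptophan route to NAD, of the salvage of nicotinamide and of its methylation, namely Tdo2, Afmid, Kmo, Kynu, Haao, Acmsd, Qprt, Nadsyn1, Nampt and Nnmt. Every probe set that carries 1 of these symbols and no other was used. This gave 11 probe sets for 8 of the 10 genes, out of 22626 probe sets tested, and the Entrez gene number of all 11 carries the same symbol in RefSeq. Acmsd and Nadsyn1 had no probe set of this kind and were not analysed here. The genes were chosen by pathway with their intensities on these same arrays, and the differences between the lines, already known, so the differences below, and the adjusted p that goes with each, are given as a description of these arrays and are not independent evidence.

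DUhTP is a non-inbred mouse line under long term selection for treadmill performance, and DUC is the unselected control line. Both lines derive from one crossbred base of outbred and inbred mice. All mice were male and 70 days old, without training, and the sources give no engineered allele and no treatment for either line. Each line was represented by 3 Affymetrix arrays, 6 in all. The study describes the RNA as pooled and the labels speak of a single mouse, so whether the spread between arrays is that of pools or of mice is not settled here.

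NAD carries electrons in the oxidation of fuels and is the substrate of enzymes such as the sirtuins, which split it and release nicotinamide. The liver makes NAD from tryptophan, whose ring is opened by the dioxygenase Tdo2. The product is converted further by Afmid, Kmo, Kynu and Haao, and Qprt joins the resulting quinolinate to a phosphoribosyl group. Nicotinamide is recycled to NAD through Nampt, or it is methylated by Nnmt with S-adenosylmethionine as the methyl donor and then leaves the cycle. Acmsd draws an intermediate away from quinolinate, and Nadsyn1 performs the last amidation to NAD.

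The promoters of 3 genes that represent these branches and had a clear stretch before their annotated start are shown here because their transcripts are described below: Tdo2 and Nampt with lower and Qprt with higher intensities in DUhTP mice. Each is the stretch of 250 bases before the annotated start in RefSeq on GRCm38.p6, written along the strand of the gene, with matches in capitals. The 5 motifs were searched on both strands and chosen with the sequences in view. They were TGACCT, which nuclear receptors bind, the E-box CACGTG, the GC box with the letters GGGCGG, the TATA box with the letters TATAAA, and the CCAAT box. In the stretches shown no match to 1 motif overlapped a match to another.
Tdo2, chr3:81975729-81975978, minus strand: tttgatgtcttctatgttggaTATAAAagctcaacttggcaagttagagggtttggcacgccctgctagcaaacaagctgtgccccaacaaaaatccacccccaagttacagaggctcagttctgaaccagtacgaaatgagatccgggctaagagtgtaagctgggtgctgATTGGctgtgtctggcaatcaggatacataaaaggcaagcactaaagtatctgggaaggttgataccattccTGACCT
Qprt, chr7:127122030-127122279, minus strand: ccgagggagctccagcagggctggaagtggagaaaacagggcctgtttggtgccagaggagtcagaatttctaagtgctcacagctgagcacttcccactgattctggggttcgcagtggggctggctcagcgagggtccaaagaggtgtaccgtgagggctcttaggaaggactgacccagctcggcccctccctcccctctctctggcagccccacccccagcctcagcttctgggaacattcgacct
Nampt, chr12:32820085-32820334, plus strand: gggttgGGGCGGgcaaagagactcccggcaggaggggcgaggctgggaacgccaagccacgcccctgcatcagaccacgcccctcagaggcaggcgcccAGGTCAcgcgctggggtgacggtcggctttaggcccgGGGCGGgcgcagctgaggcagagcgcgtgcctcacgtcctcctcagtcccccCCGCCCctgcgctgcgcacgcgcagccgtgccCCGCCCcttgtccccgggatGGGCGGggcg
The Tdo2 stretch held TGACCT at 6 bases before the start, CCAAT on the other strand at 78 and TATAAA at 229. The Nampt stretch held 5 GC boxes and TGACCT on the other strand at 151 bases before the start, and 75.6% of its bases were G or C, against 46.4% for Tdo2, 60.8% for Qprt and a median of 52.4% over all 32851 promoters of the table. No letters of the 5 motifs were found in the Qprt stretch. Of the 10 genes, 8 matched the promoter table by symbol, all but Nnmt and Kynu. TGACCT was present in 4 of these 8 (Tdo2, Haao, Acmsd and Nampt), and 14% of all promoters held it. GGGCGG was present in 3 of the 8, against 32.7% of all promoters, and CACGTG in 0, against 6.02%. TATAAA and CCAAT were each found in Tdo2 only among the 8, against 12.4% and 33.8% of all promoters.

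The arrays were even in overall brightness, with a median intensity of 53.1 to 56.6 on the DUhTP arrays and 56.3 to 57 on the DUC arrays. Hepatocyte markers were bright on every array: 8 of 8 were measured, their summed intensity was 90350 to 92495 in DUhTP mice and 96274 to 100492 in DUC mice, and 1 of them, Tat, fell. Markers of exocrine pancreas, of which 6 of 8 were measured, had a summed intensity of 3398, 930 and 2234 on the DUhTP arrays and 3784, 7349 and 5525 on the DUC arrays. All DUhTP sums were thus below all DUC sums, with DUhTP replicate 2 the lowest. The median log2 fold change of these markers was -2.42; 0 of them passed the test, and 3 were called lower with 16 added to every intensity. On 9 of the 11 probe sets DUhTP replicate 2 was the DUhTP array farthest from the DUC mean. The same count over all probe sets is not given here, so it is not read as particular to this set. The part of the pancreas transcripts in the results was not tested. The difference without DUhTP replicate 2 is given beside Tdo2, Kynu, Qprt and Nampt and, among the other genes, beside Sirt1, Sirt7, Nmrk1, Slc7a5 and Tph1. In liver tissue, fewer cells of a type and less RNA per cell cannot be told apart.

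Nnmt, Nampt, Haao and Qprt passed the threshold of an adjusted p under 0.05 in limma, Nnmt and Nampt with lower and Haao and Qprt with higher abundance in DUhTP mice. The threshold was passed by 4 of the 11 probe sets, 2 higher and 2 lower, while it was passed by 2.41% of all 22626 probe sets (1.36% higher and 1.05% lower). With a fold change (FC) over 2 in addition, 3 of the 11 passed, against 1.45% of all. An FC below 0 stands for a lower intensity in DUhTP, and the log2 FC is DUhTP minus DUC with its standard error (SE). On all 11 probe sets the intensities of the lines did not overlap, 5 with the DUhTP arrays higher and 6 with them lower; this held for 29.4% of all probe sets, 13.6% higher and 15.8% lower. The median size of the log2 FC was 0.86 over the 11 probe sets and 0.25 over all. The direction of each difference followed no single order along the route, as the plot of the differences shows.

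**Figure D1:**
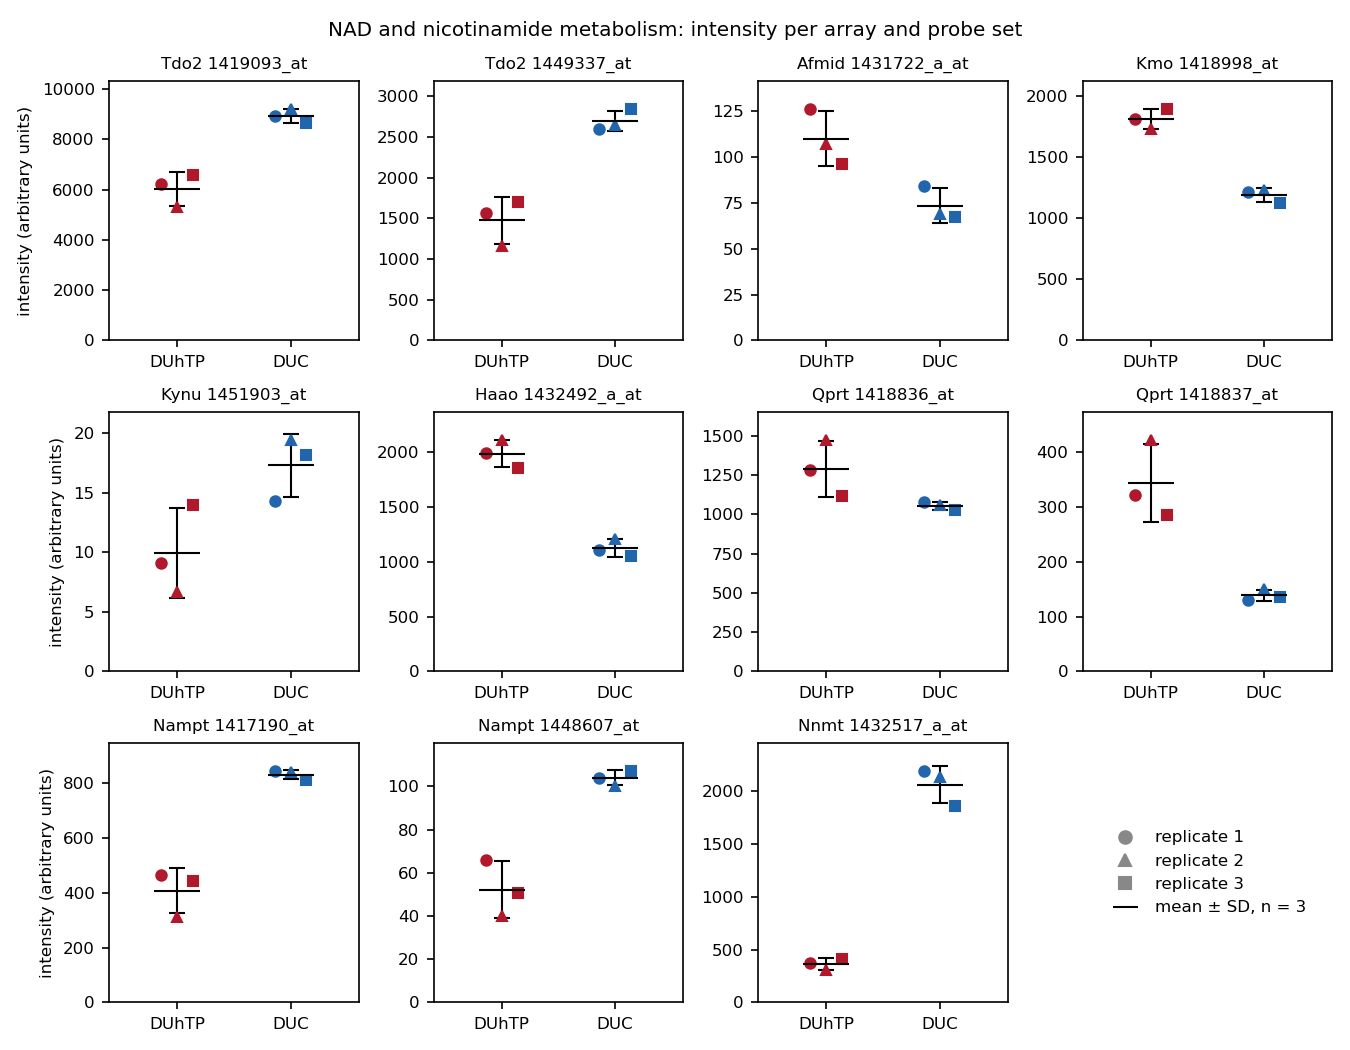
Intensity in arbitrary units of each of the 11 probe sets on the 3 DUhTP arrays (red) and the 3 DUC arrays (blue), with symbols for the replicate number and bars for the mean ± SD of a line. The lines are separate on every probe set, most widely on Nnmt, where the DUhTP arrays read 305 to 416 and the DUC arrays 1861 to 2191.

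Nnmt, the enzyme that methylates nicotinamide, had the largest difference of the set. Its probe set 1432517_a_at read 377, 305 and 416 on the DUhTP arrays and 2191, 2141 and 1861 on the DUC arrays. The highest DUhTP array thus lay far below the lowest DUC array. The DUhTP arrays averaged 366 ± 56.6 and the DUC arrays 2064 ± 178 (SD, n = 3 arrays each), which gives an FC of -5.68. The log2 FC was -2.50 with an SE of 0.16 and a 95% interval of -2.89 to -2.12 (adjusted p = 0.00708 in limma), the 50th lowest of all 22626. Leaving out 1 array moved it only between -2.60 and -2.38, and the call was lost without DUC replicate 2 (adjusted p = 0.0565) and kept without any other array.

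Nampt, the enzyme that starts the salvage of nicotinamide, fell on 1 of its probe sets and read lower on both. Probe set 1417190_at read 463, 313 and 444 on the DUhTP arrays and 843, 839 and 810 on the DUC arrays. The DUC arrays lay close together and the DUhTP arrays were spread, with replicate 2 lowest. The FC was -2.07 (log2 FC -1.05 with SE 0.18, 95% interval -1.48 to -0.62, adjusted p = 0.0475 in limma). Probe set 1448607_at read 66.0, 39.8 and 50.5 on the DUhTP arrays and 104, 100 and 107 on the DUC arrays. It gave a similar FC of -2.03 but did not pass (log2 FC -1.02, 95% interval -1.51 to -0.54, adjusted p = 0.0634). The smaller spread between DUC arrays was seen on both probe sets, with an SD of 82.0 on the DUhTP and 17.7 on the DUC arrays for 1417190_at, and of 13.2 on the DUhTP and 3.51 on the DUC arrays for 1448607_at. Without DUhTP replicate 2 the log2 FC was -0.87 on 1417190_at and -0.85 on 1448607_at. The call of 1417190_at was lost whichever 1 of the 6 arrays was left out (adjusted p = 0.0576 to 0.16).

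Tdo2, which commits tryptophan to the route, was bright and read lower in DUhTP mice on both probe sets, and neither passed. Probe set 1419093_at read 6219, 5297 and 6583 on the DUhTP arrays and 8937, 9204 and 8662 on the DUC arrays. Probe set 1449337_at read 1568, 1156 and 1702 on the DUhTP arrays and 2599, 2649 and 2841 on the DUC arrays. On both, all DUhTP arrays were below all DUC arrays and DUhTP replicate 2 was the lowest. The FC was -1.49 on 1419093_at (log2 FC -0.57 with SE 0.12, 95% interval -0.88 to -0.27, adjusted p = 0.0777) and -1.85 on 1449337_at (log2 FC -0.89 with SE 0.17, 95% interval -1.31 to -0.47, adjusted p = 0.0625). Without DUhTP replicate 2 the log2 FC was -0.48 and -0.72 on these probe sets.

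Of the enzymes that follow Tdo2, 4 had higher intensities in DUhTP mice and 1 had lower. Haao, the dioxygenase whose product turns into quinolinate, rose: its probe set 1432492_a_at read 1991, 2105 and 1854 on the DUhTP arrays and 1108, 1209 and 1049 on the DUC arrays. The lowest DUhTP array was well above the highest DUC array. The DUhTP arrays averaged 1983 ± 126 and the DUC arrays 1122 ± 81.0 (SD, n = 3 arrays each), with an FC of 1.77 (log2 FC 0.82 with SE 0.11, 95% interval 0.54 to 1.11, adjusted p = 0.0321). The difference barely depended on single arrays in size (log2 FC 0.78 to 0.88 with 1 array left out), although the call was lost whichever 1 of the 6 was left out (adjusted p = 0.0795 to 0.136).

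Kmo, the monooxygenase that hydroxylates kynurenine, showed a similar picture and missed the threshold by a narrow margin. Probe set 1418998_at read 1811, 1730 and 1891 on the DUhTP arrays and 1215, 1227 and 1123 on the DUC arrays. The arrays of each line lay close together and the lines were clearly apart. The FC was 1.52 (log2 FC 0.61 with SE 0.10, 95% interval 0.35 to 0.87, adjusted p = 0.05002). Its log2 FC was 0.57 to 0.64 with 1 array left out.

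Qprt, which converts quinolinate to the first nucleotide of the route, rose on 1 of its probe sets. On 1418837_at the DUhTP arrays read 322, 422 and 286 and the DUC arrays 131, 150 and 135. The DUhTP arrays were spread and replicate 2 was the highest of them. The FC was 2.45 (log2 FC 1.29 with SE 0.17, 95% interval 0.87 to 1.72, adjusted p = 0.0310). On the brighter 1418836_at the DUhTP arrays read 1284, 1473 and 1117 and the DUC arrays 1080, 1058 and 1026. Here the lines barely separated, with an FC of 1.22 (log2 FC 0.28, 95% interval -0.05 to 0.61, adjusted p = 0.300). The probe sets of Qprt thus pointed the same way with unequal sizes, and their intervals do not overlap. Without DUhTP replicate 2 the log2 FC was 1.13 on 1418837_at and 0.18 on 1418836_at, and the call of 1418837_at was lost whichever 1 of the 6 arrays was left out (adjusted p = 0.0553 to 0.135).

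Afmid and Kynu, the formamidase and the hydrolase of the route, did not pass. Afmid on 1431722_a_at read 126, 107 and 96.4 on the DUhTP arrays and 84.3, 68.7 and 67.1 on the DUC arrays, with an FC of 1.49 (log2 FC 0.58, 95% interval 0.19 to 0.97, adjusted p = 0.122). Kynu on 1451903_at read 9.12, 6.63 and 14.0 on the DUhTP arrays and 14.3, 19.4 and 18.2 on the DUC arrays. The Kynu lines nearly touched at DUhTP replicate 3 and DUC replicate 1. The log2 FC of Kynu was -0.86 with a 95% interval of -1.58 to -0.13 (adjusted p = 0.182), and it was -0.60 without DUhTP replicate 2. On 5 of the 6 arrays the Kynu probe set was below the lower quartile of all probe sets of that array, which was 18.9 to 19.8, and with 16 added to every intensity its log2 FC was -0.37.

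**Figure D2:**
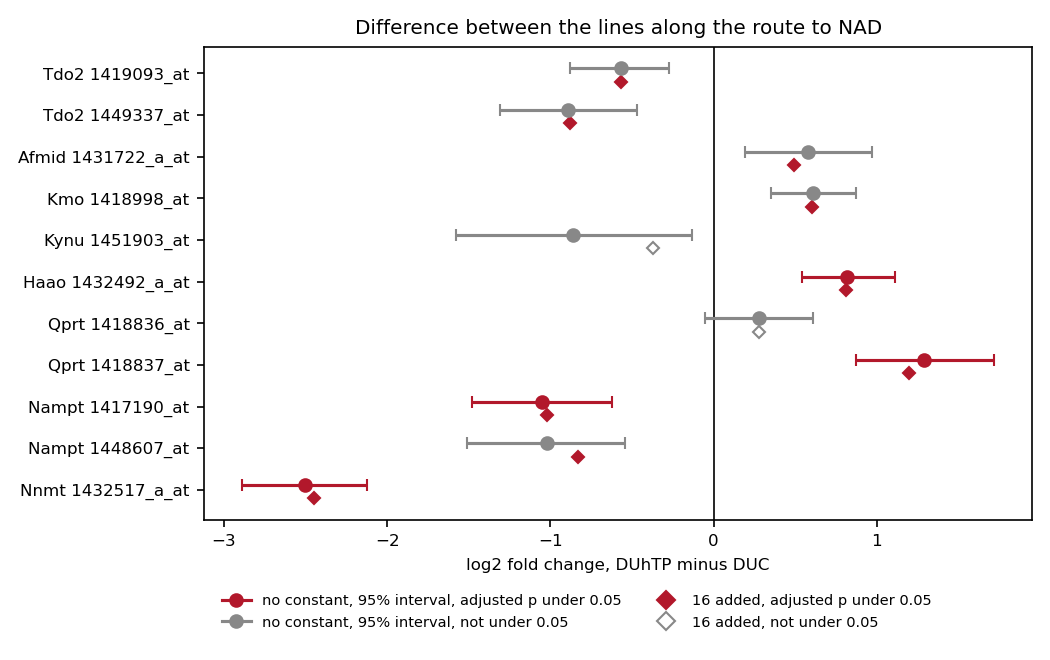
Log2 fold change (DUhTP minus DUC) of the 11 probe sets in the order of the pathway, with the 95% interval of limma without an added constant (circles) and the estimate with 16 added to every intensity (diamonds); red marks an adjusted p under 0.05. Tdo2, Kynu, Nampt and Nnmt lie below 0 and Afmid, Kmo, Haao and Qprt above it, and 4 probe sets pass without and 9 with the constant.

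More of the set passed with a constant added, in both directions. With 16 added to every intensity before the log, which damps differences among dim probe sets, 9 of the 11 passed, 4 higher and 5 lower, and 7 of the 8 genes; 8.62% of all probe sets then passed (3.92% higher and 4.7% lower). Tdo2 had an adjusted p = 0.0175 and 0.00698 on its probe sets, Kmo 0.00843, Afmid 0.0465 and Nampt on 1448607_at 0.00765. Kynu (adjusted p = 0.124) and Qprt on 1418836_at (0.208) did not pass under this setting. By gene and without a constant, 4 of the 8 genes had a probe set past the threshold, against 3.32% of the 12393 genes measured. With 16 added the count was 7 of 8, against 11.3%. The plot of adjusted p by setting shows both patterns, with few red edges where an array was left out without the constant and more where 16 was added.

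**Figure D3:**
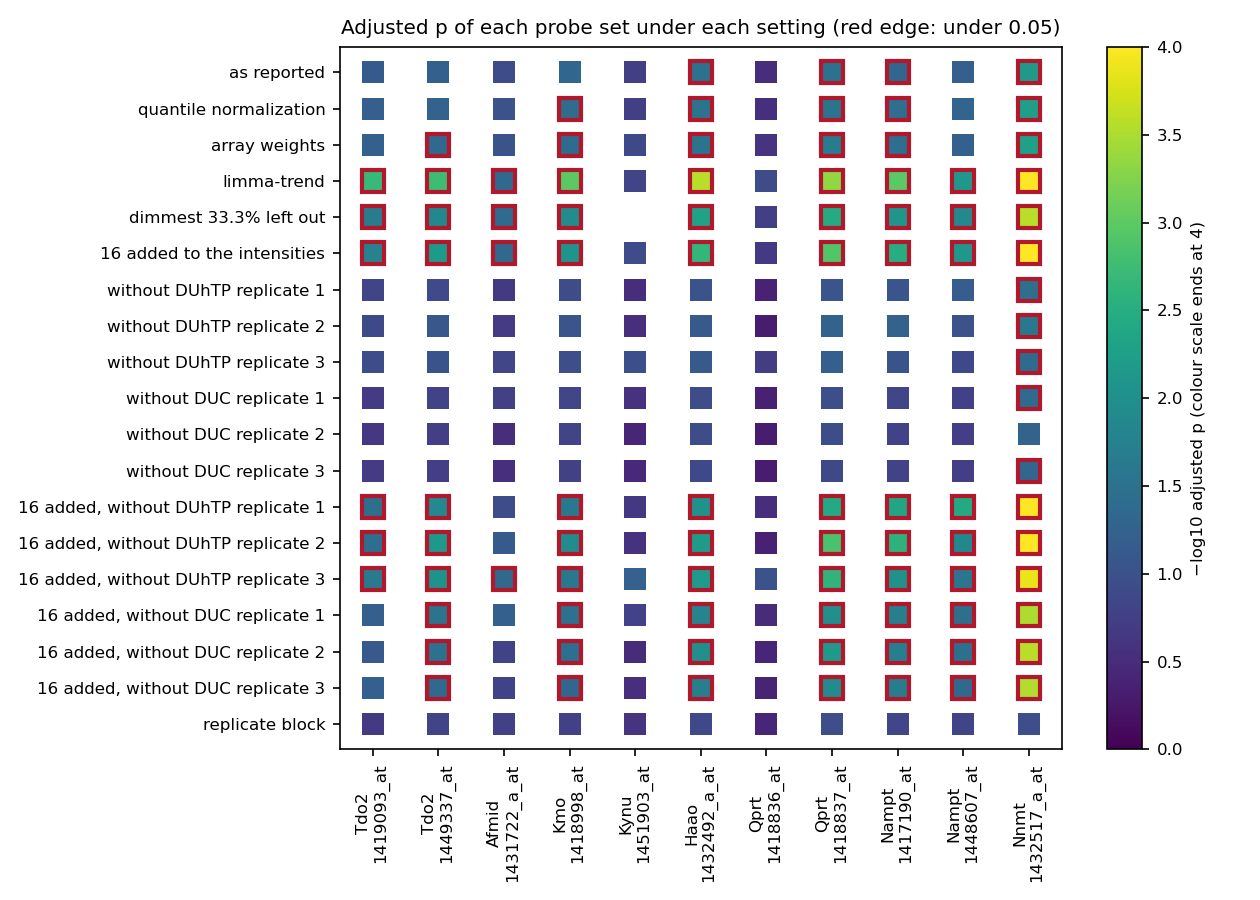
Adjusted p of the 11 probe sets (columns) under each setting (rows), as colour on a −log10 scale, with a red edge under 0.05 and a gap where a setting leaves the probe set out. Nnmt passes under every setting that includes it other than the replicate block and the fit without DUC replicate 2, and Kynu and Qprt 1418836_at pass under none.

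Macrophages also express Kmo and Kynu, so markers of Kupffer cells, the resident macrophages of the liver, are given beside them. All 8 Kupffer cell markers were measured, none at 0, and their summed intensity was 3509, 4112 and 3598 on the DUhTP arrays and 2669, 2080 and 2293 on the DUC arrays. The lines did not overlap in this sum. Of the 8 markers 1 rose, Clec4f, a lectin of Kupffer cells (mean 645 ± 70.4 on the DUhTP and 297 ± 44.7 on the DUC arrays, SD, n = 3 arrays each, adjusted p = 0.0320, and 0.0708 to 0.137 with 1 of the 6 arrays left out), and 0 fell. With 16 added 6 rose and 1 fell, the scavenger receptor Marco. The general leukocyte markers showed no such separation, with a summed intensity over 7 measured genes of 777 to 834 in DUhTP mice and 762 to 846 in DUC mice. The part of Kupffer cells in the values of Kmo and Kynu was not tested. The adipocyte list, of a tissue rich in Nnmt and Nampt, had a summed intensity over 4 of 6 genes of 204 to 207 in DUhTP mice and 201 to 226 in DUC mice, and 0 of its genes passed. Most of this sum came from Retn (log2 FC -0.23) and Lipe (0.10), while Adipoq (1.03) and Lep (0.37) were dim. The genes thus differed in direction, and the part of adipocytes in the values of Nnmt and Nampt was not tested.

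Other genes of NAD metabolism were taken from 5 lists written from pathway knowledge, of which 41 of 57 genes had a probe set with 1 symbol. Of these 41, 2 rose (Aox3 and Sirt4) and 1 fell (Mat1a), with an adjusted p under 0.05 on at least 1 probe set, against 3.32% of all genes. With 16 added 4 rose and 2 fell, against 11.3% of all genes called under that setting.

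Aox3, an aldehyde oxidase of mouse liver, belongs to the enzymes that oxidise methylated nicotinamide, the product of Nnmt. It read 1861, 2056 and 1996 on the DUhTP arrays and 830, 967 and 863 on the DUC arrays. Every DUhTP array was thus far above every DUC array, with an FC of 2.23 (log2 FC 1.15 with SE 0.11, adjusted p = 0.0166). Its relative Aox1 read 960, 1054 and 1094 on the DUhTP arrays and 787, 714 and 724 on the DUC arrays, and did not pass (log2 FC 0.48, adjusted p = 0.0882; 0.0287 with 16 added). The aldehyde oxidase genes are closely related in sequence, and whether their probe sets share signal is not known here. Of the other genes of this list, Cyp2e1, a cytochrome P450 that can oxidise nicotinamide, had a log2 FC of -0.08 and the transhydrogenase Nnt one of -0.06. Nudt13, a hydrolase of the Nudix family, had one of 0.22 on its brighter probe set and 1.16 on the dim 1422126_a_at, and 0 of these passed.

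Mat1a, the liver enzyme that makes S-adenosylmethionine, the methyl donor of Nnmt, fell. It read 6380, 5765 and 6110 on the DUhTP arrays and 9840, 10236 and 10079 on the DUC arrays. The spread within a line was small beside the gap between the lines, and the FC was -1.65 (log2 FC -0.73 with SE 0.10, adjusted p = 0.0321). The other 6 measured genes of the methyl donor cycle did not pass: Adk, Bhmt and Ahcy had a log2 FC of -0.22, -0.16 and -0.17 on their brightest probe sets (Adk had 0.17 on 1449641_at), Gnmt, a methyltransferase that also uses S-adenosylmethionine, had 0.04 and Cbs -0.05.

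Among 13 measured consumers of NAD, Sirt4, a sirtuin of mitochondria, rose and 0 fell. Its probe set read 127, 123 and 141 on the DUhTP arrays and 70.5, 62.1 and 55.5 on the DUC arrays, an FC of 2.08 (log2 FC 1.06 with SE 0.13, adjusted p = 0.0278). All DUhTP arrays were far above all DUC arrays. Parp1, a polymerase of ADP-ribose, had a log2 FC of 0.35 on its brightest probe set and 0.32 and 0.41 on the others, and did not pass on any (adjusted p = 0.126 to 0.229). Sirt1, a sirtuin of the nucleus, read 29.1, 8.99 and 36.2 on the DUhTP arrays and 43.3, 57.4 and 47.2 on the DUC arrays, a log2 FC of -1.21 (adjusted p = 0.266) that was -0.59 without DUhTP replicate 2. Tnks2 had -0.41, Sirt3 0.18 and Sirt7 0.12 (0.27 without DUhTP replicate 2), and none of these passed. Aox3, Mat1a and Sirt4 each lost the call whichever 1 of the 6 arrays was left out (adjusted p = 0.0543 to 0.0944 for Aox3, 0.0778 to 0.137 for Mat1a and 0.0658 to 0.12 for Sirt4).

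None of the 10 measured genes on the list of other NAD synthesis genes passed. That list also holds genes of neighbouring steps, such as Kyat3, Aadat and Nadk. Ido2, a second kind of tryptophan dioxygenase, had a log2 FC of 0.83 (adjusted p = 0.0958; 0.0235 with 16 added), with 97.1, 77.3 and 108 on the DUhTP arrays and 43.9, 51.0 and 64.3 on the DUC arrays. Nmrk1, a kinase of nicotinamide riboside, is named here after its values were seen. It had -1.39 on 1448048_at (adjusted p = 0.104; 0.0159 with 16 added; log2 FC -1.74 without DUhTP replicate 2) and -0.28 on the brighter 1425646_at, whose lines overlapped and whose direction turned to 0.04 without DUhTP replicate 2. Pnp, which splits nicotinamide riboside among other nucleosides, had 0.38 (adjusted p = 0.192). Kyat3 and Aadat, aminotransferases that turn kynurenine into kynurenic acid, had 0.25 and -0.22, and the bright Got2 had 0.12. Nadk, the kinase that makes NADP, had a log2 FC of 0.01 on its brighter probe set and -0.10 on 1416249_at. Of 6 measured genes of tryptophan uptake and side branches 0 passed; Ddc had a log2 FC of 0.35 (adjusted p = 0.147), Aldh8a1 -0.16, Gcdh -0.08, Slc7a8 0.06, and the dim Slc7a5 and Tph1 -0.53 and -0.37 (-0.83 and -0.03 without DUhTP replicate 2).

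**Figure D4:**
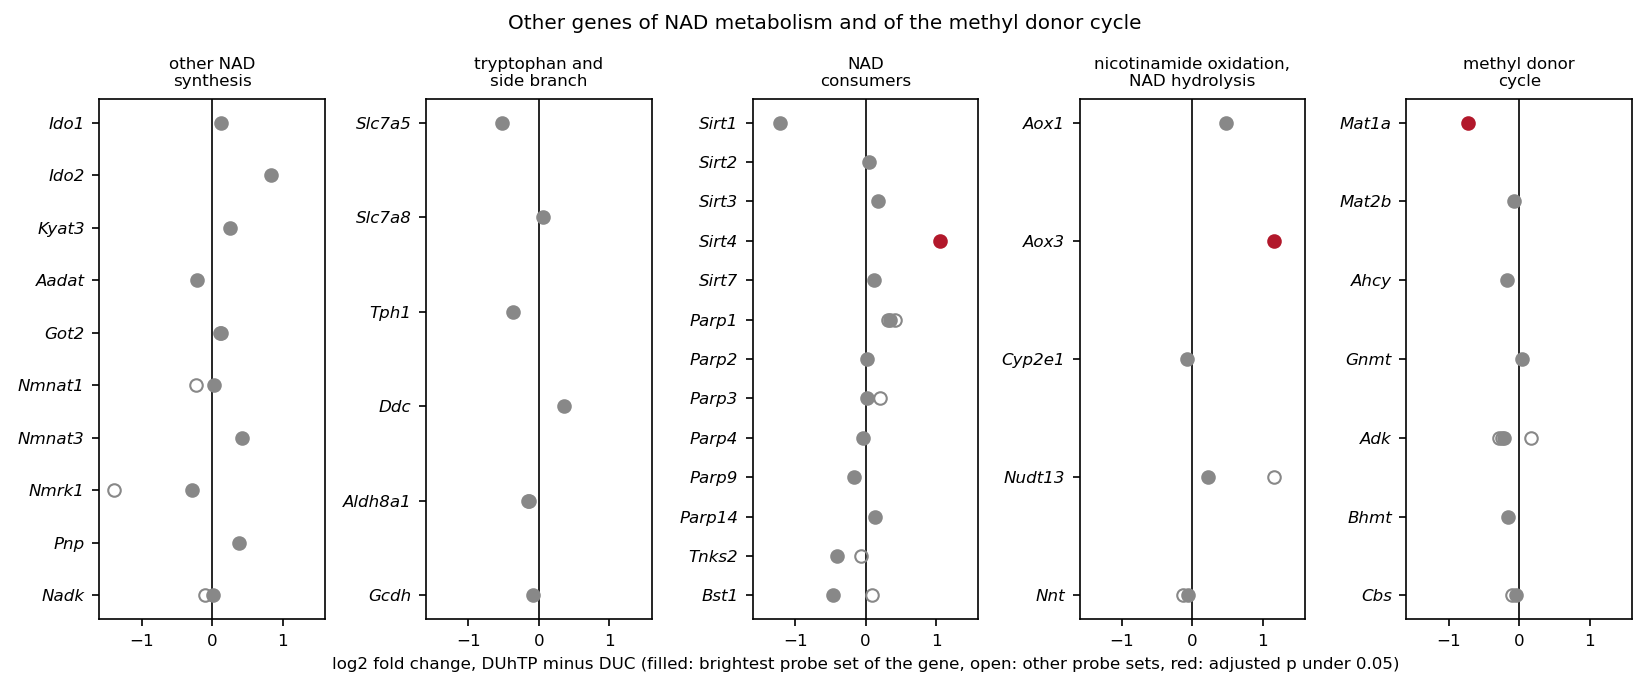
Log2 fold change (DUhTP minus DUC) of the 41 measured genes of the 5 lists; filled points are the brightest probe set of a gene, open points its other probe sets, and red marks an adjusted p under 0.05. Aox3 and Sirt4 lie at 1.15 and 1.06 and Mat1a at -0.73, and the other points are grey.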

How the data were processed

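The authors hybridised liver RNA to Affymetrix mouse arrays, scaled the scans globally in GCOS 1.1.1 (per the labels) and ran PLIER in Array Assist. The deposited values are linear PLIER intensities, in arbitrary units; an added constant and the PLIER version are not given in the sources used here, and no detection calls were used. The 64 control probe sets of 22690 were left out. Of the 22626 tested, 20380 carry 1 gene symbol, 691 several and 1555 none. Intensities were logged to base 2 without a constant and compared in limma 3.58.1 under R 4.3.3 (lmFit, eBayes), with no block, with Benjamini-Hochberg adjustment of p across the whole table. The procedure was run on simulated data, but the outcome is not given here and is not used as evidence. An exact two-sided permutation test of 3 against 3 arrays cannot give a p below 0.1, and the number of arrays limits the precision. Whether the arrays of a line came from separate mice is not settled, so p measures the spread between these arrays only.

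Members and gene lists were chosen with earlier results of these data known. Named from each pathway list were all genes past the threshold, up to 4 with the smallest p and up to 2 others with the highest mean; where a gene had several probe sets the brightest stood for it, and others were given where they differed in direction or call. Nmrk1 was added after its values were seen. The 9 marker lists came from textbook knowledge. Besides those described with the results, markers passing were Col3a1 of the stellate cell list and Alas2 of the erythroid list (both higher), and 0 of the endothelial and bile duct lists. These genes do not stand for their lists. Of the erythroid list 2 of 5 genes were measured, and the other, Hba-a1, had a log2 FC of -0.08 with lines that overlapped. Over the 7 measured genes of the stellate cell list the median log2 FC was 0.02 on the brightest probe sets. Alternatives were 16 added, quantile normalization, the dimmest 33.3% left out, limma-trend, array weights, a replicate block, the probe sets of suffix _s_at, _x_at or _a_at left out, the brightest probe set per gene, and each array left out.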

Additional observations from a re-analysis of the deposited data

How the results depend on the processing

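The 11 probe sets of the set and the 3 called pathway genes kept their direction under every alternative in which they were present. Of 262 differences 0 reversed, and those by probe set suffix were added after seeing the data. The lines did not overlap on any of these probe sets, so apart from quantile normalization no alternative could have reversed a direction. The count of 0 is thus no evidence of stability beyond that setting, and the number of calls moved widely. Of the 11 probe sets, 4 passed as reported; 9 passed with 16 added, 9 with limma-trend, 9 with the dimmest 33.3% left out (Kynu is among those left out), 1 without probe sets of suffix _s_at, _x_at or _a_at, which leaves out those of Nnmt, Haao and Afmid and in which Nampt 1417190_at lost its call (adjusted p = 0.0571), and 0 with a replicate block. By gene the count was 4 as reported, 7, 7 and 7 under the first 3 of these, and 0 with the replicate block. With quantile normalization 5 probe sets and 5 genes passed, and with array weights 6 probe sets and 6 genes. With the brightest probe set per gene 3 genes passed, because that of Qprt, 1418836_at, did not. At an FC over 2, 3 of the 11 probe sets passed as reported and 0 with the replicate block. Of the other pathway genes 3 passed as reported, and 6, 9 and 6 with 16 added, limma-trend and the dimmest 33.3% left out, and 0 with the replicate block. Over all probe sets 546 passed as reported, and 1951, 2350, 1854 and 0 under these settings. The 1854 were counted with the dimmest 33.3% left out, so they are a share of fewer than 22626 probe sets. A count over all probe sets without the suffixes _s_at, _x_at and _a_at is not given here. At an FC over 2 the count over all probe sets was 327 as reported, 557 with limma-trend and 0 with the replicate block.

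With 1 array left out, 0 to 1 of the 11 probe sets, 0 to 1 of the genes, 0 of the pathway genes and 1 to 122 of all probe sets passed (0 to 1 and 1 to 122 at an FC over 2). With 16 added as well, chosen after seeing the data, it was 7 to 9 of the 11 (2 to 3 at an FC over 2), 6 to 7 of the genes, 3 to 7 pathway genes and 771 to 1591 of all (287 to 390 at an FC over 2). Haao, Nnmt, Kmo, both Nampt probe sets, Qprt 1418837_at and Tdo2 1449337_at passed in all 6 of these fits, with an adjusted p of at most 0.0489. The replicate numbers did not pair the arrays: deviations from the line means of arrays with the same number correlated at 0.00341, 0.0048 and 0.0667, so the block uses up degrees of freedom of 6 arrays and its counts of 0 are not read as a weaker effect. With the block Nnmt had an adjusted p = 0.115.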

Other observations

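Tat, the tyrosine aminotransferase of hepatocytes, which like Tdo2 is classically induced by glucocorticoids, was on the hepatocyte marker list and was the only gene of that list to pass. It read 3886, 4248 and 3485 on the DUhTP arrays and 6952, 7829 and 6549 on the DUC arrays, an FC of -1.84 (log2 FC -0.88 with SE 0.13, adjusted p = 0.0370), and it was lower on 3 of 3 DUhTP arrays than on any DUC array. The call was lost whichever 1 of the 6 arrays was left out (adjusted p = 0.0701 to 0.139). The paper reports similar serum corticosterone in both lines, and the part of glucocorticoids in the values of Tat and Tdo2 was not tested. Alas2, which starts haem synthesis in red cell precursors, had an FC of 1.85 (mean 1316 ± 210 on the DUhTP and 709 ± 56.7 on the DUC arrays, SD, n = 3 arrays each, adjusted p = 0.0499), and Col3a1, a fibrillar collagen of the stellate cell list, had an FC of 1.91 on 1427883_a_at (mean 263 ± 40.5 on the DUhTP and 137 ± 9.77 on the DUC arrays, adjusted p = 0.0434) and 1.24 on the dimmer 1427884_at (adjusted p = 0.346). These calls, too, were lost whichever 1 of the 6 arrays was left out (adjusted p = 0.0878 to 0.166 for Alas2 and 0.0813 to 0.152 for Col3a1). Other members of their lists did not follow them: Hba-a1 of the erythroid list had a log2 FC of -0.08. In the stellate cell list Lrat had -0.43, Dcn -0.13, Des 0.02 and Acta2 0.40 on their brightest probe sets.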
